A study of Homo sapiens with 23 samples.

Results

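Day 28 cardiomyocytes were compared with day 7 cardiac progenitors in a directed differentiation of H1-hESC, an established human embryonic stem cell line whose genotype the labels give as wild type. The members were chosen by collection day alone: all 3 libraries labelled day 28 and all 3 labelled day 7, 6 of the 23 libraries of the series, with every gene in the count table. The whole series samples 8 collection days, the first of them the undifferentiated stem cell, and each day has 3 libraries apart from day 10 with 2. Both groups share the line and the protocol, and differ by 3 weeks in culture. The stem cells were kept in mTeSR1, and the differentiated cells in RPMI medium with insulin. No sorting or metabolic selection for cardiomyocytes is named in the labels, so each library is a bulk culture. Total counts were 14644475, 14717583 and 15637683 in the day 28 libraries, and 4506749, 7161150 and 8889988 in the day 7 libraries. Nothing states that replicates came from separate cultures, so the spread between libraries of the same day may be technical. The p-values rest on that spread estimated over all 23 libraries of the series, not over the 6 alone.

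The heart's contractile unit is the sarcomere, in which thick filaments of myosin slide along thin filaments of actin that are anchored at the Z-disc. Cardiac progenitors switch on a first set of sarcomere genes before beating begins, and the immature cardiomyocyte then changes over weeks. In the human heart that maturation includes a change from alpha to beta myosin heavy chain in the ventricle, a change from slow skeletal to cardiac troponin I, growth of calcium-handling membranes, more mitochondria with more use of fatty acids, and withdrawal from the cell cycle. The comparison asks how much of each of these had occurred between the progenitor and the last collected day.

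Levels are given as CPM, library-size-scaled counts adjusted by TMM, a correction for differences in RNA composition, with the SD over 3 libraries, and a pair of CPM values written with "against" gives the day 28 mean and the day 7 mean. Log2 changes are fitted values of day 28 over day 7 with their SE, and adjusted p-values are from edgeR's quasi-likelihood test with Benjamini-Hochberg adjustment over all genes. A gene was called at an adjusted p under 0.05. Where genes overlap on the genome (among those named, ACADM, ANLN, CACNA1C, CACNA1D, CDK4, CPT1B, DECR1, DGAT1, FOXA1, IGF2BP3, IRX4, ITGA4, KCNJ2, LPIN2, LPIN3, NRAP, SLC25A12, TBX2 and TTN), reads may have been shared with the neighbour. Of 22245 genes tested, 5556 (25.0%) were called higher on day 28 and 5246 (23.6%) were called lower, with a median log2 change of 0 over all genes, so 48.6% were called in either direction. For 65.9% of genes the libraries of the days did not overlap. At least 2-fold changes made up 4427 of the higher calls (19.9% of genes) and 4091 of the lower calls (18.4%). The split depended on scaling: of all calls, 51.4% were higher with TMM and 34.2% with library totals alone, under which the median of all genes moved to -0.32. Programs whose medians lie within about that distance of 0 are therefore given without a direction.

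The labels were checked against marker lists. All 10 cardiomyocyte markers passed the filter on low counts, with 7 called higher and 1, MYH6, lower. Their summed level was 33297, 32934 and 25144 CPM on day 28, against 9298, 12132 and 10385 CPM on day 7. MYH7 was the largest part of the day 28 sums, at 19700, 21337 and 12738 CPM with TMM. The sums of lists in this paragraph are scaled by library totals alone, without TMM. Both groups thus held sarcomere RNA, and the labelled progenitors had TNNT2, cardiac troponin T, at 1886 CPM. Day 28 replicate 3 stood apart from the other 2 libraries of its day. It had the lowest summed cardiomyocyte markers, and its summed mitosis genes were highest, at 1222, 940.4 and 1917 CPM on day 28, against 2773, 2566 and 2481 CPM on day 7. The smooth muscle list, 8 higher and 1 lower of 12, had sums of 3043, 3032 and 3390.4 CPM on day 28, against 1829.5, 1804 and 1818 CPM on day 7. Sums of the fibroblast list, 7 higher and 1 lower of 14, were 3327, 3633 and 3539 CPM on day 28, against 2795, 1774 and 1779 CPM on day 7. Endothelial markers fell, with 10 of 12 lower and 0 higher, and sums of 116, 117 and 127 CPM on day 28, against 777, 796 and 733 CPM on day 7. The endoderm and liver list had 3 higher and 11 lower of 14, and its sums overlapped between the days at 611, 868 and 969 CPM on day 28, against 777, 782 and 807 CPM on day 7. Pluripotent markers had 9 of 12 tested lower, 0 higher and sums of 18.3, 16.99 and 13.7 CPM on day 28, against 1543, 1652 and 1598 CPM on day 7, of which LIN28A made up most. In bulk samples, fewer cells of a type and less RNA per cell cannot be told apart, and the part of these other cells in the results that follow was not tested.

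**Figure D1:**
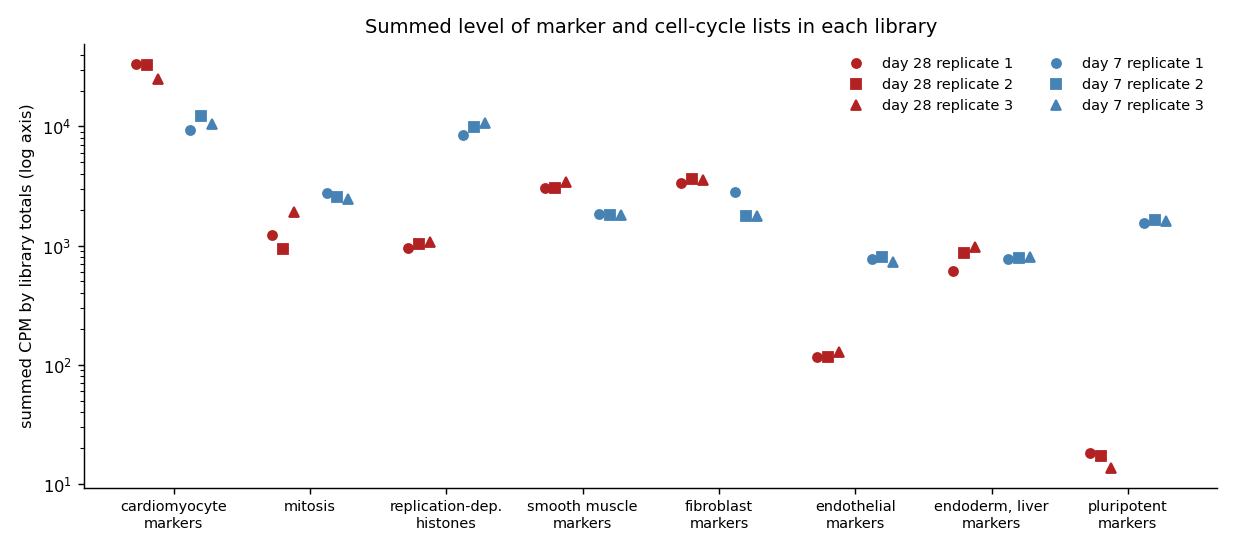
Summed CPM (by library totals, log axis) of 6 marker lists and 2 cell-cycle lists in each library, day 28 in red and day 7 in blue, with a symbol for each replicate. Cardiomyocyte markers lie higher in every day 28 library, histones, endothelial and pluripotent markers lower, and day 28 replicate 3 (triangle) is the highest of its day for mitosis.

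The myosin heavy chains changed places. MYH7 encodes the slow beta heavy chain of the adult human ventricle, and MYH6 the fast alpha heavy chain of the atrium and the early heart tube. MYH7 stood at 19700.1, 21337 and 12738 CPM on day 28, against 267, 291 and 315 CPM on day 7. All day 28 libraries lay far above all day 7 libraries, even replicate 3, the lowest of its day (log2 change 5.94 ± 0.39, adjusted p = 1.78e-11). Its mean CPM on day 28, not divided by gene length, was the highest of any protein-coding gene. Per kilobase of exon, its 2974 CPM on day 28 lay below MYL7 at 6275 and ACTC1 at 3891. MYH6 stood at 1754, 1519 and 2332 CPM on day 28, against 4040.5, 5553 and 4856 CPM on day 7. Here the order was the reverse with no overlap between the days (log2 change -1.37 ± 0.35, adjusted p = 0.00251). Counted per kilobase of exon, MYH7 made up 93.1, 94.4 and 86.8% on day 28, against 7.40, 5.96 and 7.26% on day 7 of the MYH7 and MYH6 total. The means were 91.5% ± 4.06 on day 28 and 6.87% ± 0.793 on day 7 (SD, n = 3 each), against 14.7% on day 10 and 14.9% on day 14. MYH6 itself was higher in between, at 7373 CPM on day 10 and 9709 CPM on day 14, so the change of share lay between day 14 and day 28. The 2 genes are close paralogs next to each other on chromosome 14, at chr14:23412740-23435660 and chr14:23381982-23408273 of GRCh38, and reads from stretches they share may have been left out or split by the counting.

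Each of these genes carries a microRNA in an intron on its own strand, and a related one lies in MYH7B, a minor myosin heavy chain of slow muscle. The mature sequences (RefSeq, GRCh38.p14, 5′ to 3′) are shown because the hosts moved in opposite directions while the seed, bases 2 to 8 in capitals, is the same in the first pair and differs at its last base in the other.
miR-208b-3p: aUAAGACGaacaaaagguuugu
miR-208a-3p: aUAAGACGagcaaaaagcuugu
miR-499a-5p: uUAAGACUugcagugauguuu
miR-208b-3p lies at chr14:23417997-23418018, minus strand, inside MYH7. miR-208a-3p lies at chr14:23388602-23388623, minus strand, inside MYH6, and miR-499a-5p at chr20:34990408-34990428, plus strand, inside MYH7B. The host MYH7B rose to 56.7, 49.8 and 38.5 CPM on day 28, against 7.65, 7.71 and 7.47 CPM on day 7 (log2 change 2.67 ± 0.28, adjusted p = 3.24e-08). GSS and TRPC4AP overlap MYH7B on the opposite strand, and since the strand setting of the counting is not stated, their reads cannot be told apart from its own. These libraries measured total RNA of the hosts, and mature microRNAs were not analysed here.

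Of the 18 thick filament and M-band genes tested, 12 were higher and 2 lower on day 28 (25.0% and 23.6% of all genes; 1 lower without any library but day 7 replicate 1), with a median log2 change of 1.71. MYL2, the regulatory light chain of the ventricle, had 314, 399 and 269 CPM on day 28. On day 7 it had only 2 counts in the 3 libraries together, or 0.196, 0.120 and 0 CPM, and its day 14 mean was 5.58 CPM. MYL7, the atrial counterpart, was also higher, at 10413, 10729 and 6304 CPM on day 28, against 2951, 3254 and 3636 CPM on day 7 (log2 change 1.48 ± 0.35, adjusted p = 0.00116). MYL2 made up 3.63% ± 0.596 on day 28 and 0.00355% ± 0.00343 on day 7 of the MYL2 and MYL7 total per kilobase (SD, n = 3 each, no overlap between the days), so MYL7 was the main form in both groups. The essential light chain of the ventricle, MYL3, made up 19.8, 19.8 and 19.3% on day 28, against 11.8, 13.9 and 13.03% on day 7 of the MYL3 and MYL4 total, with no overlap between the days.

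Structural proteins of the thick filament rose as well. TTN, the giant spring that runs from the Z-disc to the M-band, stood at 2639, 2352 and 2331 CPM on day 28, against 340.1, 431 and 344 CPM on day 7 (log2 change 2.72 ± 0.36, adjusted p = 9.93e-07). MYOM1, which cross-links myosin at the M-band, averaged 2025 ± 137 CPM on day 28 and 213 ± 8.16 CPM on day 7 (log2 change 3.25 ± 0.37, adjusted p = 1.09e-07). For MYBPC3, the cardiac myosin-binding protein C, the means were 1815 ± 209 CPM on day 28 and 425 ± 49.9 CPM on day 7 (log2 change 2.10 ± 0.32). TRIM63, the muscle ubiquitin ligase MuRF1, and SMYD1, a methyltransferase needed for myosin assembly, were higher by 3.57 and 1.93 on the log2 scale. MYL4 (atrial essential light chain) was not called, with a log2 change of 0.23.

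The thin filament had 11 of 22 tested members higher and 3 lower, with a median log2 change of 0.88. Cardiac troponin T (TNNT2) stood at 4079, 4149.6 and 3532 CPM on day 28, against 1737, 2035 and 1886 CPM on day 7 (log2 change 1.06 ± 0.26, adjusted p = 0.00155). Troponin C of slow and cardiac muscle, TNNC1, stood at 2197, 2379.7 and 2195 CPM on day 28, against 664, 812 and 858 CPM on day 7 (log2 change 1.54 ± 0.29, adjusted p = 1.26e-04). For both genes every day 28 library lay above every day 7 library. The troponin I pair did not follow. TNNI1, the slow skeletal form of the fetal heart, had 2150.2, 2629 and 1599.7 CPM on day 28, against 1470.2, 1697 and 1906 CPM on day 7, and TNNI3, the adult cardiac form, had 42.6, 50.3 and 23.9 CPM on day 28, against 22.4, 28.9 and 32.8 CPM on day 7. The 2 days overlapped for both, and neither was called (log2 change 0.33 ± 0.36, adjusted p = 0.461 for TNNI1 and log2 change 0.47 ± 0.33, adjusted p = 0.241 for TNNI3). Per kilobase, TNNI3 made up 6.19% ± 0.862 on day 28 and 5.72% ± 0.363 on day 7 of the pair (SD, n = 3 each, exact two-sided permutation p = 0.5). MYH7 had thus become the main heavy chain while TNNI1 was still the main troponin I.

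Among actins, ACTC1 (cardiac actin) averaged 11120.5 ± 484 CPM on day 28 and 6632 ± 447 CPM on day 7, and its call, at an adjusted p of 0.0448, was lost when any 1 of the 6 libraries was left out (adjusted p 0.0778 to 0.15). ACTA1, the skeletal actin that is also made in human heart, stood at 1054, 856 and 805 CPM on day 28, against 141, 247 and 265 CPM on day 7 (log2 change 2.05 ± 0.36, adjusted p = 4.86e-05). Its share of the ACTA1 and ACTC1 total per kilobase was 9.77, 8.62 and 8.23% on day 28, against 2.59, 4.44 and 4.26% on day 7, with no overlap between the days. The tropomyosin TPM1 was higher by 0.87 and NEBL (nebulette, which binds actin near the Z-disc) by 2.08 on the log2 scale. LMOD2, a leiomodin that sets thin filament length, had 444, 434 and 343 CPM on day 28, against 56.1, 54.2 and 48.04 CPM on day 7. NRAP, which links filaments during myofibril assembly, had 86.04, 89.2 and 51.6 CPM on day 28, against 1.37, 0.482 and 0.519 CPM on day 7, an increase seen only after day 14, when its mean was 1.35 CPM. The fast skeletal TNNC2 and slow skeletal TNNT1 went the other way, with log2 changes of -3.97 and -1.28.

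**Figure D2:**
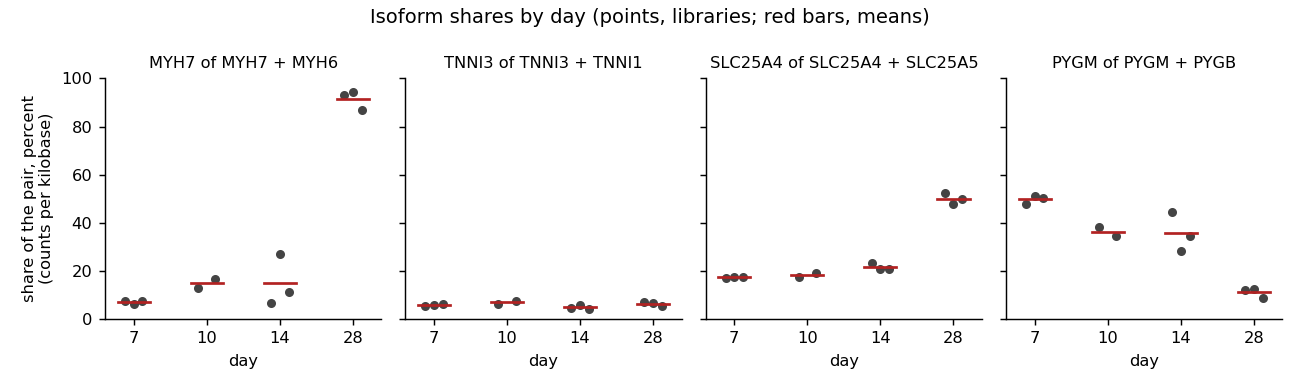
Share of the first gene in each pair, in percent of counts per kilobase of exon, by day, with a point for each library and a red bar for the mean. MYH7 exceeded 86% in every day 28 library after at most 26.8% on day 14, while TNNI3 lay near 6%, SLC25A4 reached about 0.5 of its pair and PYGM fell to about 11%.

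Z-disc and costamere genes, which anchor the sarcomere and tie it to the cell membrane, had the most uniform change of the sarcomere lists: 24 of 28 tested members were higher and 0 lower, with a median log2 change of 2.59. PDLIM3, a PDZ and LIM protein that binds alpha-actinin, had 1245, 1425 and 1111 CPM on day 28, against 10.6, 10.2 and 12.1 CPM on day 7 (log2 change 6.84 ± 0.36, adjusted p = 9.85e-13). Its mean was 30.03 CPM on day 14, so nearly all of that increase came later. CSRP3 (muscle LIM protein, a stretch sensor) had 1512, 1546 and 1222 CPM on day 28, against 74.5, 98.4 and 87.98 CPM on day 7 (log2 change 4.03 ± 0.33, adjusted p = 5.38e-10). ANKRD1, a stress-responsive ankyrin repeat protein of the titin spring, had 6213, 5616 and 5892 CPM on day 28, against 746, 877 and 896 CPM on day 7 (log2 change 2.81 ± 0.40, adjusted p = 3.70e-06). The membrane-linking proteins rose with them. DMD (dystrophin) averaged 1221 ± 9.29 CPM on day 28 and 94.7 ± 1.28 CPM on day 7, and LAMA2, the laminin chain outside the muscle cell that dystroglycan binds, averaged 990.2 ± 20.5 CPM on day 28 and 24.4 ± 4.83 CPM on day 7. ACTN2 (sarcomeric alpha-actinin), LDB3 (cypher) and TCAP (telethonin) had log2 changes of 2.59, 2.59 and 4.26. The intermediate filament gene DES was not called, at 28.9 against 41.1 CPM (log2 change -0.51).

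**Figure D3:**
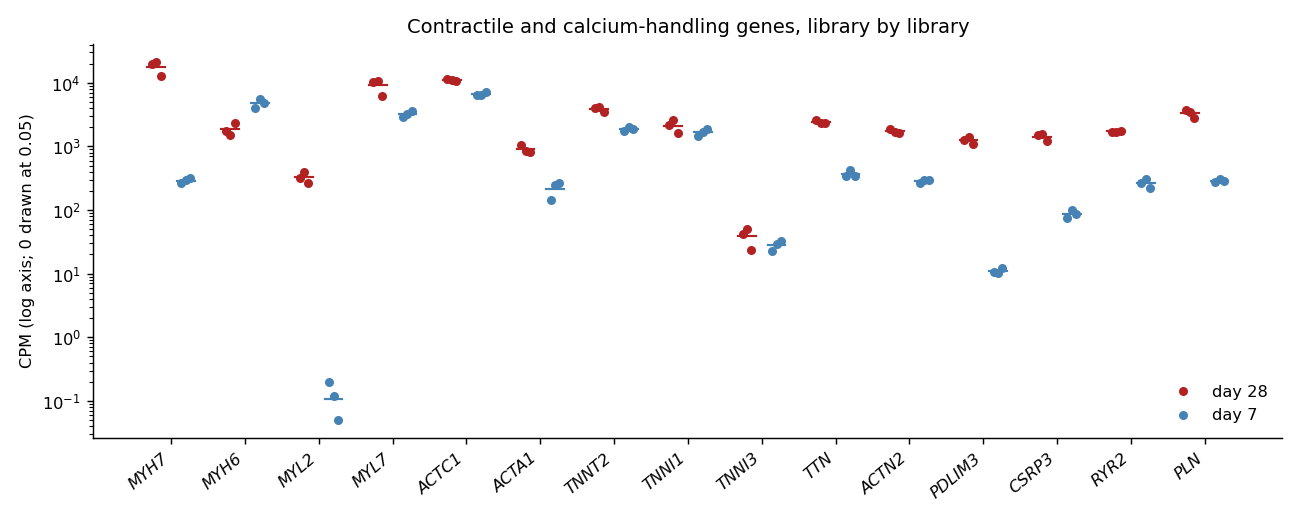
CPM on a log axis of 15 contractile and calcium-handling genes in each library, day 28 in red left of day 7 in blue, with bars at the means and values of 0 drawn at 0.05. The days are separate for every gene but TNNI1 and TNNI3, and MYH6 is the gene whose day 28 libraries lie below those of day 7.

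Promoters of 3 of the risen sarcomere genes are shown for their letters, as the 120 bases before the RefSeq start (GRCh38.p14), with CArG boxes, MEF2 sites and TATA boxes (TATAAA) in capitals, on either strand. The CArG box is the sequence bound by serum response factor, and MEF2 factors bind the MEF2 site.
ACTA1: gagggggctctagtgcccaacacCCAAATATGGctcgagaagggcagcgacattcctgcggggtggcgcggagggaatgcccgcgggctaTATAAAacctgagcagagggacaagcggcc
FHL2: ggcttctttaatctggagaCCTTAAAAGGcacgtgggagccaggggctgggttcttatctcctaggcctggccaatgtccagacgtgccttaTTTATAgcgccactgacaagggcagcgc
MYBPC3: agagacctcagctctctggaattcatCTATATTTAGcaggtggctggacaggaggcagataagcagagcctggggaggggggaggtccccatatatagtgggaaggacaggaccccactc
They lie at chr1:229434095-229434214, minus strand, at chr2:105438514-105438633, minus strand and at chr11:47352703-47352822, minus strand. FHL2, a LIM protein of the Z-disc, had 535, 674 and 356 CPM on day 28, against 48.1, 62.4 and 61.7 CPM on day 7. In windows from 250 bases before to 50 after the start, a MEF2 site was found in 3 of 11 thick filament genes, 0 of 18 thin filament genes, 2 of 21 Z-disc genes and in 0.494% of 13973 tested genes with a window. A CArG box was in 2 of 11, 3 of 18 and 2 of 21 genes of these lists and in 1.13% of all. A TATA box was in 4 of the 11 thick filament genes and in 6.98% of all. In 19 of all 69 windows with a MEF2 site the site itself held a TATA box, so these counts overlap. Over the genes at least 2-fold higher on day 28, the MEF2 share was 0.935%, and over those at least 2-fold lower it was 0.461%. A match is only a run of letters and shows no binding.

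Of 32 calcium-handling genes tested, 17 were higher and 6 lower (median 0.82), against 25.0% higher and 23.6% lower over all genes, so the lower count was no more than the background. PLN (phospholamban, which restrains the calcium pump) had 3719, 3453 and 2819 CPM on day 28, against 272, 306 and 283 CPM on day 7 (log2 change 3.53 ± 0.30, adjusted p = 9.58e-10). The release channel RYR2 had 1702, 1689 and 1775 CPM on day 28, against 271, 307 and 224 CPM on day 7 (log2 change 2.69 ± 0.35, adjusted p = 1.13e-06), and the sodium-calcium exchanger SLC8A1 had 2646, 2735 and 2699.7 CPM on day 28, against 660.1, 819 and 735 CPM on day 7 (log2 change 1.87 ± 0.29, adjusted p = 1.25e-05). Each was separate from day 7 in every library. The pump ATP2A2 (SERCA2) changed less, with means of 1419.7 ± 182 CPM on day 28 and 643 ± 31.9 CPM on day 7 (log2 change 1.14 ± 0.23). CASQ2 (cardiac calsequestrin, the calcium buffer of the store) was higher by 3.38 on the log2 scale but low, at 9.88 CPM on day 28. ITPR1, an inositol trisphosphate receptor, and BIN1, which shapes the transverse tubules of the adult cell, were lower. BIN1 had 21.4, 27.7 and 16.7 CPM on day 28, against 139, 126 and 134 CPM on day 7 (log2 change -2.60 ± 0.26, adjusted p = 2.04e-08). JPH2 (junctophilin) averaged 428 against 219.9 CPM (log2 change 0.96, adjusted p = 0.031), and its call was lost without any 1 library (adjusted p 0.0643 to 0.106).

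Ion channel genes had 18 of 37 tested higher and 6 lower, beside 25.0% and 23.6% of all genes. The L-type calcium channel subunits CACNA1C and CACNA2D1 averaged 319 against 65.3 CPM and 122 against 9.48 CPM, with log2 changes of 2.29 and 3.70. Another L-type subunit, CACNA1D, went the other way, at 29.6 against 82.0 CPM. A T-type channel gene used by embryonic and pacemaker cells, CACNA1H, was lower at 14.2, 16.1 and 13.6 CPM on day 28, against 38.4, 41.1 and 44.9 CPM on day 7 (log2 change -1.51 ± 0.31, adjusted p = 3.43e-04). The T-type gene CACNA1G was not lower, at 22.1 against 19.4 CPM. KCNJ2, which carries the inward rectifier current of adult ventricle, was low on both days, at 2.22, 0.927 and 1.59 CPM on day 28, against 1.57, 1.81 and 1.56 CPM on day 7, and was not called (log2 change -0.06 ± 0.45, adjusted p = 0.925). HCN4, the pacemaker channel, was not called either, at 96.2 against 71.02 CPM (log2 change 0.44). KCNIP2, a subunit of the transient outward potassium channel, was lower, at 8.28, 8.42 and 6.20 CPM on day 28, against 71.99, 80.2 and 77.9 CPM on day 7, although it had 75.8 CPM on day 14. Gap junction gene GJA1 (connexin 43, the ventricular connexin) had 335, 362 and 354 CPM on day 28, against 61.2, 47.2 and 55.8 CPM on day 7 (log2 change 2.68 ± 0.46, adjusted p = 4.54e-05).

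The intercalated disc, the junction between heart cells, had 16 of 22 tested members higher and 1 lower. CDH2 (N-cadherin) averaged 978 ± 79.4 CPM on day 28 and 302 ± 15.1 CPM on day 7, and PKP2 (plakophilin 2) averaged 1322 ± 74.4 CPM on day 28 and 411 ± 32.3 CPM on day 7. Their log2 changes were 1.69 and 1.68. JUP (plakoglobin) was the member called lower, with an adjusted p of 0.0433 and the call was lost without day 28 replicate 1 or 3, or day 7 replicate 1 or 3 (adjusted p 0.0634 to 0.0796). In cAMP and adrenergic signalling, 18 of 28 tested were higher and 2 lower. AKAP6, which anchors protein kinase A near the nucleus and ryanodine receptor, had 494, 486 and 536 CPM on day 28, against 6.08, 4.82 and 6.02 CPM on day 7 (log2 change 6.49 ± 0.46, adjusted p = 7.70e-11). BVES and POPDC2, cAMP-binding Popeye proteins, had log2 changes of 3.28 and 2.00.

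The natriuretic peptides, hormones of the embryonic ventricle and of the stressed heart, were both higher. NPPA had 627, 633 and 495 CPM on day 28, against 127, 152 and 147 CPM on day 7 (log2 change 2.04 ± 0.32, adjusted p = 1.06e-05), and NPPB had 841, 649 and 643 CPM on day 28, against 46.3, 62.6 and 79.4 CPM on day 7 (log2 change 3.50 ± 0.52, adjusted p = 6.68e-06). Both had fallen below their day 7 means on day 14, at 120.4 CPM for NPPA and 35.8 CPM for NPPB, after 673 and 316 CPM on day 10. The order over the days was therefore not a steady rise. CORIN, the protease that activates the NPPA hormone, averaged 638 ± 23.3 CPM on day 28 and 167 ± 16.6 CPM on day 7. NPR1, a receptor for both peptides, was lower, at 1.85, 0.773 and 0.721 CPM on day 28, against 38.6, 23.01 and 24.6 CPM on day 7 (log2 change -4.67 ± 0.44, adjusted p = 5.24e-09). Of the 19 tested members of the list of natriuretic and secreted factors, 8 were higher and 3 lower, beside 25.0% and 23.6% of all genes.

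Energy metabolism changed gene by gene more than as a whole. For uptake and oxidation of fatty acids, 14 of 38 tested were higher and 4 lower (2 lower when any library but day 7 replicate 1 was left out), with a median of 0.21 that became -0.12 with library totals. FABP3, the heart fatty acid-binding protein, had 567, 562 and 418 CPM on day 28, against 72.6, 73.4 and 66.9 CPM on day 7 (log2 change 2.86 ± 0.26, adjusted p = 4.11e-09). DECR1 and ACADM, enzymes of beta oxidation, averaged 98.1 against 24.6 CPM and 107 against 41.7 CPM (log2 changes 1.99 and 1.36). CD36, the fatty acid transporter, was higher at a low level, with means of 16.3 against 3.67 CPM (log2 change 2.17). CPT1B, the muscle form of the enzyme that admits fatty acids to the mitochondrion, was at 0.397 against 0.596 CPM and not called. Its share of the CPT1B and CPT1A total was 1.72% ± 0.347 on day 28 and 3.18% ± 2.00 on day 7 (SD, n = 3 each). CPT1A thus remained the main form in both groups.

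Glycolysis had 12 of 33 tested higher and 1 lower with TMM, with a median of 0.24. Its summed level was 17206 against 17271 CPM by library totals. The sums overlapped between the days with either scaling, so no direction is given for the list. LDHA, which makes lactate, had 1667, 1749 and 1494 CPM on day 28, against 431, 467 and 442 CPM on day 7 (log2 change 1.87 ± 0.29, adjusted p = 9.87e-06). LDHB, the heart form, was therefore a smaller share of the pair per kilobase, 48.1, 49.9 and 49.6% on day 28, against 69.1, 69.95 and 70.2% on day 7. PGK1 and the lactate carrier SLC16A1 had log2 changes of 1.19 and 1.67. PDK4, a kinase that shuts off pyruvate dehydrogenase and is a marker of fatty acid use, was lower, with 1.57 against 7.00 CPM. SLC2A4, the insulin-responsive glucose transporter, was not called at 18.5 against 21.3 CPM. For GAPDH and PKM, abundant enzymes of the pathway, the log2 changes were -0.08 and -0.26, and neither was called.

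The pyruvate dehydrogenase and citric acid cycle list had 18 of 33 tested higher and 1 lower (median 0.60). With library totals these counts were 12 and 7. MPC1, a subunit of the mitochondrial pyruvate carrier, had 55.6, 53.7 and 53.2 CPM on day 28, against 9.22, 10.96 and 9.23 CPM on day 7 (log2 change 2.46 ± 0.22, adjusted p = 2.69e-09). MDH1 and SLC25A12, of the malate-aspartate shuttle, averaged 950.1 against 234 CPM and 123 against 27.2 CPM. In complex I, 15 of 37 subunits were called higher and 3 lower with TMM, but 2 were higher and 14 lower with library totals, so no direction is given for the complex. Without day 28 replicate 3 there were 8 higher and 1 lower, and without day 7 replicates 1, 2 or 3 there were 5, 4 and 9 higher. NDUFS1, its largest subunit, held its call, with 339, 343 and 369 CPM on day 28, against 119, 112 and 113 CPM on day 7 (log2 change 1.61 ± 0.34, adjusted p = 3.57e-04). Of complexes III to V and their partners, 10 of 44 were higher and 2 lower, beside 25.0% and 23.6% of all genes. With library totals these counts were 7 and 14. With TMM, the lower count was 1 without day 28 replicate 1 or 3, or day 7 replicate 1 or 3. CYCS (cytochrome c) had 415, 393 and 413 CPM on day 28, against 97.3, 92.2 and 92.9 CPM on day 7 (log2 change 2.11 ± 0.24, adjusted p = 1.13e-07). The adenine nucleotide translocators changed their proportion. SLC25A4, the heart and muscle form, made up 52.2, 47.7 and 49.7% on day 28, against 16.8, 17.5 and 17.4% on day 7 of the SLC25A4 and SLC25A5 total per kilobase.

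The muscle forms of other enzymes did not follow one pattern. COX6A2 and COX7A1, muscle subunits of cytochrome oxidase, were 15.4% and 0.743% of their pairs on day 28, and 15.7% and 1.04% on day 7. In between, the COX6A2 share was higher, at 35.5% on day 10 and 49.1% on day 14. PYGM, muscle glycogen phosphorylase, was 12.2, 12.4 and 8.79% on day 28, against 47.9, 50.96 and 50.4% on day 7 of the PYGM and PYGB total, and the log2 changes were 1.91 for PYGB and -1.05 for PYGM. Of 15 such pairs compared, 10 had shares that did not overlap between the days, near the 65.9% of all genes whose levels did not. The pair of PGAM2 and PGAM1 could not separate, as the PGAM2 share was 0 in every library. For the 10 pairs the exact two-sided permutation p was 0.1, the smallest that 3 against 3 libraries can give. It was 0.15 after adjustment over the pairs.

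Of the 13 messenger RNAs of the mitochondrial genome, 2 were called higher and 2 lower (0 higher and 1 lower without day 28 replicate 1, 1 lower without replicate 2, and 1 higher without day 28 replicate 3 or any 1 day 7 library), with a median log2 change of 0.42. Their summed level with TMM was 21702, 20193 and 21799 CPM on day 28, against 22278, 21633 and 23228 CPM on day 7, and the days overlapped. By library totals alone it was 20111, 17792 and 19371 CPM on day 28, against 25241, 25138 and 25249 CPM on day 7, with every day 28 library lower, so no direction is given for the sum. MT-ND1 (a complex I subunit) was lower, at 341, 272 and 348 CPM on day 28, against 716, 611 and 639 CPM on day 7 (log2 change -1.03 ± 0.30, adjusted p = 0.00569). MT-CO1 (cytochrome oxidase subunit 1) was not called, at 10571 against 9858 CPM. Among regulators of mitochondrial biogenesis and shape, 10 of 33 were higher and 5 lower, beside 25.0% and 23.6% of all genes. PPARGC1A (PGC-1 alpha) had 169, 164 and 137 CPM on day 28, against 44.1, 54.8 and 40.9 CPM on day 7 (log2 change 1.75 ± 0.38, adjusted p = 5.24e-04), with a higher day 14 mean of 221 CPM. OPA1, which fuses inner membranes, averaged 271 against 64.6 CPM (log2 change 2.07). RXRA, a nuclear receptor partner of the PPAR factors, was lower, at 24.9, 25.8 and 23.8 CPM on day 28, against 123, 106 and 108 CPM on day 7 (log2 change -2.18 ± 0.33, adjusted p = 7.01e-06).

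The lipins convert phosphatidate to diacylglycerol, and LPIN1 is the member the study's title names. LPIN1 had 95.7, 88.5 and 83.9 CPM on day 28, against 38.8, 35.9 and 31.3 CPM on day 7 (log2 change 1.34 ± 0.27, adjusted p = 2.77e-04). Its mean on day 14 was 92.8 CPM, so the day 28 level had been reached by then. LPIN3 was higher too, at 19.9, 19.8 and 13.3 CPM on day 28, against 5.49, 8.31 and 7.89 CPM on day 7 (log2 change 1.27 ± 0.32, adjusted p = 0.00215), and LPIN2 was not called (log2 change 0.09 ± 0.25, adjusted p = 0.784). LPIN2 overlaps the more highly counted EMILIN2 on the opposite strand. GPAT3, an acyltransferase at the start of the same pathway, had 43.98 CPM on day 28 and 3 counts in all on day 7. DGAT1 and DGAT2, which make triglyceride, were lower, with log2 changes of -1.39 and -1.38. Over the 35 tested members of the list, 11 were higher and 7 lower with TMM, near the 25.0% and 23.6% of all genes. With library totals, 7 were higher and 17 lower. With TMM, leaving out any 1 of the 6 libraries gave 7 higher.

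Among the lists of programs, the lowest median was that of replication-dependent histones, the genes that supply histone protein during DNA synthesis. Of 44 tested, 43 were lower and 0 higher (23.6% of all genes were lower), with a median log2 change of -3.38. With library totals the counts were also 43 and 0. Their summed level with TMM was 1022, 1171 and 1213 CPM on day 28, against 7533, 8476 and 9860.2 CPM on day 7. H1-2, the most abundant linker histone of the list on day 7, had 123, 161 and 122 CPM on day 28, against 732, 917 and 1009 CPM on day 7 (log2 change -2.71 ± 0.34, adjusted p = 4.63e-07). H1-3 had 18.1, 20.5 and 21.6 CPM on day 28, against 386, 474 and 509 CPM on day 7 (log2 change -4.51 ± 0.33, adjusted p = 1.19e-10), and H1-5 had 32.5, 29.3 and 62.9 CPM on day 28, against 679, 743 and 955 CPM on day 7. H2AC14, with the largest change of the list, had 3.47, 3.32 and 8.22 CPM on day 28, against 110.2, 137 and 169 CPM on day 7 (log2 change -4.79 ± 0.49, adjusted p = 2.23e-08). The libraries of the days were separate for each of these genes. On day 14 the means were already low, at 34.4 CPM for H1-3 and 55.4 CPM for H1-5. Most of these messenger RNAs lack a poly(A) tail, and the libraries were made from total RNA. Many of the genes have near-identical copies, so values of single histone genes are uncertain.

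Genes of mitosis fell less evenly. Of 50 tested, 24 were lower and 1 higher (median -0.80). Their summed level with TMM was 1318, 1067 and 2157 CPM on day 28, against 2448, 2209 and 2282 CPM on day 7. Day 28 replicate 3 thus lay just under the lowest day 7 library. Without day 28 replicate 3, which had the most mitotic RNA of its day, 27 were lower and the median was -1.13. CDC20, which activates the anaphase-promoting complex, had 7.69, 6.34 and 13.9 CPM on day 28, against 77.7, 65.2 and 71.6 CPM on day 7 (log2 change -2.94 ± 0.39, adjusted p = 1.28e-06). AURKB (Aurora kinase B) had 5.40, 3.79 and 7.28 CPM on day 28, against 41.00, 33.6 and 39.8 CPM on day 7 (log2 change -2.79 ± 0.36, adjusted p = 9.32e-07), and PLK1 (polo-like kinase 1) had 5.91, 5.80 and 10.3 CPM on day 28, against 38.6, 33.4 and 37.97 CPM on day 7 (log2 change -2.32 ± 0.34, adjusted p = 5.29e-06). In each, replicate 3 was the highest on day 28 and still far under day 7. MKI67, the Ki-67 proliferation marker, had 48.8, 23.8 and 85.7 CPM on day 28, against 70.03, 64.6 and 60.6 CPM on day 7 and was not called (log2 change -0.30 ± 0.49, adjusted p = 0.635). TOP2A (DNA topoisomerase II) had 105, 78.9 and 193 CPM on day 28, against 186, 168 and 168 CPM on day 7 and was not called either. For both, replicate 3 lay above every day 7 library and the other 2 below every one. ANLN (anillin, of the cleavage furrow) was the member called higher, at 149, 109 and 248 CPM on day 28, against 56.7, 53.8 and 51.98 CPM on day 7 (log2 change 1.64 ± 0.43, adjusted p = 0.00295).

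DNA replication genes had 24 of 52 tested lower and 3 higher, with 33 lower and 1 higher without day 28 replicate 3. Leaving out any 1 day 7 library also gave 1 higher. MCM2, part of the replicative helicase, had 32.7, 39.5 and 59.99 CPM on day 28, against 158, 150.2 and 178 CPM on day 7 (log2 change -1.88 ± 0.32, adjusted p = 3.12e-05). The licensing factors CDT1 and ORC1 were lower, with log2 changes of -2.81 and -2.84, at 5.04 against 35.4 CPM and 3.85 against 27.7 CPM. PCNA, the polymerase clamp, was not called, at 78.7 against 61.1 CPM. Among cyclins, kinases and inhibitors, 14 of 37 were higher and 11 lower, beside 25.0% and 23.6% of all genes. CDKN1A (p21, an inhibitor of cyclin-dependent kinases) had 649, 847 and 397 CPM on day 28, against 65.7, 63.00 and 59.8 CPM on day 7 (log2 change 3.33 ± 0.34, adjusted p = 2.74e-08), and it was lowest on day 28 in replicate 3. CDKN2B (p15) averaged 54.4 ± 9.72 CPM on day 28 and 4.74 ± 0.672 CPM on day 7, and RB1 (retinoblastoma protein) 152 ± 19.96 CPM on day 28 and 31.8 ± 2.41 CPM on day 7. The D-type cyclin CCND2 also rose, with 737, 762 and 682 CPM on day 28, against 95.7, 63.4 and 75.1 CPM on day 7 (log2 change 3.22 ± 0.35, adjusted p = 5.88e-08), as did its kinase CDK6 (log2 change 1.73). CDK4, MYCN and MYBL2 were lower, with log2 changes of -1.51, -2.71 and -2.55. The inhibitor CDKN1C (p57) went against CDKN1A and CDKN2B, at 19.7 against 77.3 CPM (log2 change -1.98).

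**Figure D4:**
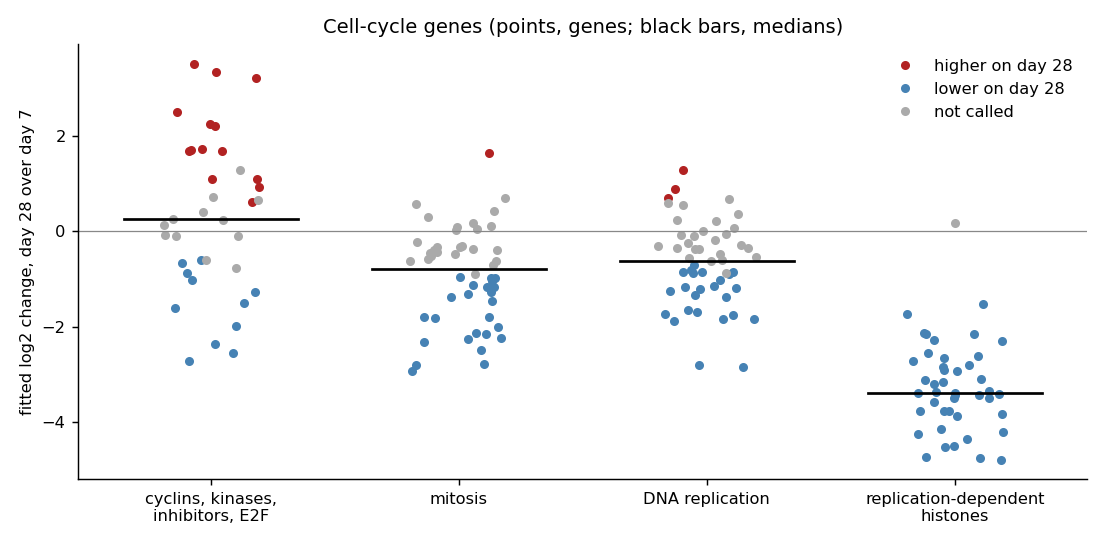
Fitted log2 change of day 28 over day 7 for the tested genes of 4 cell-cycle lists, a point for each gene and a black bar for the median, with colours for the call. The histone median is -3.38, mitosis and replication genes spread mostly from no change downwards, and the regulators lie on both sides of 0.

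Promoters of these lists share known letters, shown as the 120 bases before the RefSeq start (GRCh38.p14). In the first 3, of mitotic genes, capitals mark the CCAAT box (CCAAT) and the cell cycle homology region or CHR element (TTTGAA or TTCGAA), on either strand. The CHR is where repressor and activator complexes of the cell cycle bind.
CCNB2: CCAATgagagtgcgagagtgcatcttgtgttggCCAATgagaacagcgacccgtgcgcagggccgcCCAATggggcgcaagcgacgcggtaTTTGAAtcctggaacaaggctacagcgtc
PLK1: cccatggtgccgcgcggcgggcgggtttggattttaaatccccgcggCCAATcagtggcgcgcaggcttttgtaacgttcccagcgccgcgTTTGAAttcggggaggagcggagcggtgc
ESPL1: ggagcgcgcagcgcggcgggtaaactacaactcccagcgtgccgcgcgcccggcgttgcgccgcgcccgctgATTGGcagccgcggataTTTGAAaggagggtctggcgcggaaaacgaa
They lie at chr15:59105026-59105145, plus strand, at chr16:23678769-23678888, plus strand and at chr12:53268179-53268298, plus strand, and a CHR stands 29, 29 and 31 bases before the start. CCNB2 (cyclin B2) averaged 15.6 against 55.3 CPM and ESPL1 (separase) 6.61 against 46.3 CPM. In windows from 250 before to 50 after the start, a CHR was found in 32 of 42 mitosis genes (76.2%) and in 12.1% of all 13973 tested genes with a window. A CCAAT box was in 78.6% of the mitosis genes and in 36.0% of all. In the next 3, of histone genes, capitals mark the CCAAT box and the TATA box (TATAAA).
H1-3: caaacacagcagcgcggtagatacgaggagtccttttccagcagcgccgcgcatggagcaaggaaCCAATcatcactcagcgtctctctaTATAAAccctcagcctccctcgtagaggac
H2AC14: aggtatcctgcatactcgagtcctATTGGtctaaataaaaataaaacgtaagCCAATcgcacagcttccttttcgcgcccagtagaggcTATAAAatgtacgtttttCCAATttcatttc
H4C13: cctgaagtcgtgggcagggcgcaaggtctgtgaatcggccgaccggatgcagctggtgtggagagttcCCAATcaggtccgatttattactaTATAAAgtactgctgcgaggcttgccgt
They lie at chr6:26234988-26235107, minus strand, at chr6:27814778-27814897, minus strand and at chr6:27873535-27873654, minus strand. H4C13 (a histone H4 gene) had 1.48, 2.24 and 3.46 CPM on day 28, against 54.7, 63.8 and 73.97 CPM on day 7. A TATA box was in 27 of 39 histone genes (69.2%) and in 6.98% of all, and a CCAAT box in 33 of 39 (84.6%). For replication genes, an E2F site (TTTGGCGC, TTTCCCGC or TTTGCCGC) was in 16 of 44 (36.4%) and in 4.04% of all. Over all genes at least 2-fold lower on day 28, the CHR share was 11.5% and the CCAAT share 36.6%, close to those of all genes. A match shows letters and no binding.

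LIN28A had the largest fall of any gene that the naming rule admits. It encodes an RNA-binding protein of stem and embryonic cells that blocks maturation of the let-7 microRNAs. It stood at 1.03, 0.464 and 0.505 CPM on day 28, against 1153, 1195 and 1248 CPM on day 7 (log2 change -10.79 ± 0.48, adjusted p = 9.20e-14), and its means ran 1199, 313, 62.3 and 0.668 CPM over days 7, 10, 14 and 28. Its paralog LIN28B averaged 19.97 ± 0.889 CPM on day 28 and 87.1 ± 5.87 CPM on day 7 (log2 change -2.12 ± 0.43). TRIM71, a target of let-7, and HMGA1, a chromatin protein of embryonic cells, were lower with it. HMGA1 had 46.2, 54.4 and 44.3 CPM on day 28, against 989, 979 and 1137 CPM on day 7 (log2 change -4.42 ± 0.34, adjusted p = 1.99e-10). Other members of the oncofetal list differed: HMGA2 and IGF2BP3 were not called (log2 changes 0.69 and 0.02), and IGFBP5 was higher, at 518 against 43.6 CPM. In all, 5 of 25 tested were higher and 10 lower, beside 25.0% and 23.6% of all genes. Without day 7 replicate 2 or 3, 3 were higher.

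Of 43 cardiac transcription factor genes tested, 15 were higher and 14 lower, beside 25.0% and 23.6% of all genes. HOPX, a homeodomain protein of differentiating cardiomyocytes, had 189.9, 220.1 and 166 CPM on day 28, against 5.10, 5.66 and 3.84 CPM on day 7 (log2 change 5.31 ± 0.43, adjusted p = 1.09e-09), and its day 14 mean was only 3.24 CPM. PRDM16, HEY2 and IRX4, which act in ventricular muscle, had log2 changes of 3.01, 2.66 and 2.00. The core factors NKX2-5 and GATA4 stood at 221 against 269.7 CPM and 236 against 223 CPM, and were not called. ISL1, a factor of second heart field progenitors, had 3.99, 3.17 and 3.60 CPM on day 28, against 54.7, 33.4 and 47.00 CPM on day 7 (log2 change -3.64 ± 0.45, adjusted p = 4.70e-07). TBX3, of the conduction system, had 14.4, 11.4 and 14.2 CPM on day 28, against 153, 183 and 171 CPM on day 7 (log2 change -3.66 ± 0.29, adjusted p = 4.19e-10). HAND1 and TBX2 were lower, with log2 changes of -2.23 and -1.84. The ventricular markers (MYL2, IRX4, HEY2, FHL2, MYL3, LBH) were higher in 6 of 6 cases, the atrial ones in 3 of 10 with 2 lower, and those of pacemaker cells in 3 of 11 with 5 lower.

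Regulators of muscle splicing had 10 of 22 tested higher and 4 lower, beside 25.0% and 23.6% of all genes. MBNL1, which brings in adult splice forms, had 189.7, 195 and 225 CPM on day 28, against 20.2, 15.4 and 14.2 CPM on day 7 (log2 change 3.62 ± 0.37, adjusted p = 2.62e-08). RBM24 and RBM20, of which RBM20 governs titin splicing, averaged 392 against 96.98 CPM and 288 against 92.6 CPM. PTBP1, a repressor of muscle exons, was lower, at 55.7, 58.8 and 73.5 CPM on day 28, against 276, 262 and 298 CPM on day 7 (log2 change -2.15 ± 0.28, adjusted p = 8.56e-07). The epithelial regulator ESRP1 was lower too (log2 change -2.48).

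Signals of the early embryo were lower as a list: of 62 tested genes of Wnt, BMP, FGF, Notch and Hedgehog signalling, 36 were lower and 13 higher (median -1.08). FGF8 had 0.148, 0.232 and 0.144 CPM on day 28, against 25.1, 35.3 and 41.6 CPM on day 7 (log2 change -7.54 ± 0.42, adjusted p = 1.79e-12). DUSP6, a target and brake of FGF signalling, averaged 24.4 against 260.2 CPM, and ID1 and ID3, targets of BMP signalling, 19.7 against 281 CPM and 20.96 against 302 CPM. BMP2 and WNT2 were lower, with log2 changes of -2.47 and -5.77. Some ligands and receptors went up, among them BMP5 at 479 against 68.00 CPM, FGF12 at 85.1 against 2.16 CPM and FZD1 at 254 against 28.3 CPM. KDR, the VEGF receptor of mesoderm and endothelium, had 29.6, 28.7 and 43.6 CPM on day 28, against 395, 373 and 349 CPM on day 7 (log2 change -3.45 ± 0.41, adjusted p = 2.70e-07). CDH5 (VE-cadherin), an endothelial marker, averaged 1.12 against 61.1 CPM, and its list of endothelial markers fell as given above.

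Of 44 collagen and basement membrane genes tested, 23 were higher and 10 lower, against 25.0% higher and 23.6% lower over all genes, so the lower count was near the background. POSTN (periostin), a matrix protein of fibroblasts and valve cells, had 220.1, 259 and 307 CPM on day 28, against 1.18, 0.482 and 0.415 CPM on day 7 (log2 change 8.69 ± 0.52, adjusted p = 5.19e-12). COL3A1 had 2040.3, 2428 and 2182 CPM on day 28, against 961, 491 and 450.1 CPM on day 7 (log2 change 1.81 ± 0.46, adjusted p = 0.00221), with day 7 replicate 1 about 2 times its companions. COL1A1 was not called, at 411 against 363 CPM (log2 change 0.18). COL9A2, a collagen of cartilage and notochord, was lower, at 1.18, 2.55 and 1.44 CPM on day 28, against 34.9, 44.6 and 57.6 CPM on day 7 (log2 change -4.73 ± 0.48, adjusted p = 2.27e-08). The stromal marker PDGFRA was lower (log2 change -1.78) while DCN (decorin) was higher, at 21.7 against 1.11 CPM. Among smooth muscle genes, CNN1 (calponin) had 1051, 1111 and 904 CPM on day 28, against 149.7, 159 and 167 CPM on day 7 (log2 change 2.69 ± 0.32, adjusted p = 1.89e-07) and TAGLN (transgelin) had 765, 849 and 1139 CPM on day 28, against 224, 243 and 331 CPM on day 7, whereas ACTA2 (smooth muscle actin) had 369, 386 and 637 CPM on day 28, against 749, 719.8 and 729.9 CPM on day 7 and was not called. Early cardiomyocytes also express these 3 genes. Whether the rise of matrix and smooth muscle genes came from cardiomyocytes or other cells was not tested.

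The list of endoderm and liver genes split. The transcription factors FOXA1 and FOXA2 were lower, with log2 changes of -5.21 and -6.13, and TTR (transthyretin) had 0.813, 1.39 and 1.87 CPM on day 28, against 160.3, 127 and 197 CPM on day 7 (log2 change -6.88 ± 0.66, adjusted p = 1.84e-08). The secreted proteins SERPINA1, AFP and ALB were higher. SERPINA1 had 514, 793 and 767 CPM on day 28, against 59.4, 56.7 and 56.6 CPM on day 7 (log2 change 3.59 ± 0.47, adjusted p = 1.12e-06), against a mean of 1806 CPM on day 14. AFP, at 95.8, 131 and 227 CPM on day 28, against 36.3, 29.99 and 17.9 CPM on day 7, had reached 1743 CPM on day 14. Of the days 7, 14 and 28, day 14 had the highest mean of both, and whether cells of another type made this RNA was not tested.

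The 15 largest rises by the naming rule began with MLIP, a lamin-interacting protein of heart muscle, at 211, 214 and 196 CPM on day 28, against 0, 0.602 and 0.415 CPM on day 7 (log2 change 9.03 ± 0.46, adjusted p = 1.75e-12). INPP4B, a lipid phosphatase, had 248, 246 and 241 CPM on day 28, against 0.981, 0.843 and 0.415 CPM on day 7 (log2 change 8.42 ± 0.47, adjusted p = 1.79e-12). HSPB3, a small heat shock protein of muscle, had 155, 152 and 179.5 CPM on day 28, against 0.392, 0.723 and 0.415 CPM on day 7 (log2 change 8.26 ± 0.41, adjusted p = 9.85e-13). These 3 and POSTN each lay under 2 CPM in every day 7 library. The other rises were CRYBB1, PRSS35, ITGA4, SLC6A4, INHBA, SSPN, PTX3, FGF5, C7, PDLIM3 and NRAP, with log2 changes between 6.70 and 7.74. SSPN (sarcospan) belongs to the dystrophin complex, SLC6A4 is the serotonin transporter, at 161 against 1.03 CPM, and INHBA makes activin A, at 173 against 1.15 CPM. SCG2 (secretogranin II) and EYA4 (a co-factor of muscle development) stood at 81.8 and 37.4 CPM on day 28, with 1 and 3 counts in all on day 7. SULT1E1, an estrogen sulfotransferase, had 1772 counts on day 28 and 0 on day 7. With a floor of 3 counts over the day 7 libraries it was at least 338-fold higher.

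After LIN28A, the 15 largest falls included RIPPLY3, OIT3, FOXH1, NPY, ZFP42, FCN3, PTPN5, CGA, FGF8, PRRX2, SPTSSB, ALPL and PLVAP, with log2 changes between -9.11 and -7.19. RIPPLY3, a co-repressor of TBX1 in the pharyngeal region, had 0.370, 0 and 0 CPM on day 28, against 70.4, 59.7 and 91.9 CPM on day 7 (log2 change -9.11 ± 0.68, adjusted p = 1.66e-10). NPY (neuropeptide Y) had 0.370, 0.927 and 1.37 CPM on day 28, against 220.1, 199.8 and 268 CPM on day 7 and OIT3 0.665, 0.927 and 0.288 CPM on day 28, against 256, 227 and 252 CPM on day 7. The naming rule admits only genes without overlap between the days, so their separation is no further result. ZFP42 (REX1) is a stem cell marker and FOXH1 a partner of Nodal signals. KIFC2 overlaps FOXH1 on the opposite strand. PLVAP and FCN3 are made by endothelium, a cell type whose markers fell. IHH (Indian hedgehog) and SOST (sclerostin) had 2 and 3 counts in all on day 28, against means of 34.7 and 31.4 CPM on day 7.

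Of 23 long non-coding RNAs tested in a list of known RNAs, 10 were higher and 7 lower, beside 25.0% and 23.6% of all genes. The next RNAs were instead chosen over all genes, as the 5 largest rises and the 5 largest falls, leaving out LINC, antisense, clone and pseudogene names. BANCR had 98.98, 108 and 54.4 CPM on day 28, against 1.96, 1.33 and 2.18 CPM on day 7 (log2 change 5.57 ± 0.46, adjusted p = 1.47e-09). The other rises were MIR4435-2HG, TBILA, CYTOR and MIR3936HG, with log2 changes between 2.67 and 3.54, and protein-coding genes on the opposite strand overlap MIR4435-2HG and MIR3936HG. The falls were MIR205HG, PCAT14, FIRRE, SUNO1 and MIR122HG. PCAT14 had 2.00, 2.24 and 0.793 CPM on day 28, against 177, 180.1 and 186 CPM on day 7 (log2 change -6.75 ± 0.52, adjusted p = 2.17e-10), and FIRRE, which binds nuclear matrix factors, had 3.33, 5.10 and 4.40 CPM on day 28, against 122, 168 and 176 CPM on day 7 (log2 change -5.18 ± 0.29, adjusted p = 1.75e-12). LINC00881, a transcript enriched in heart, had 313, 368 and 239.5 CPM on day 28, against 0.981, 0.964 and 0.623 CPM on day 7 (log2 change 8.51 ± 0.40, adjusted p = 1.16e-13). MALAT1, a nuclear RNA that is among the most abundant on both days, averaged 9800.3 ± 655 CPM on day 28 and 4453 ± 381 CPM on day 7 (log2 change 1.14 ± 0.29). Among other abundant RNAs, EEF1A1 (an elongation factor) and FN1 (fibronectin) averaged 6868 against 8022 CPM and 4205 against 7148 CPM. RN7SL2 (signal recognition particle RNA) averaged 21222 against 32359 CPM. EEF1A1, FN1 and RN7SL2 were not called (adjusted p 0.479, 0.0817 and 0.169), and the days overlapped for EEF1A1 and RN7SL2.

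**Figure D5:**
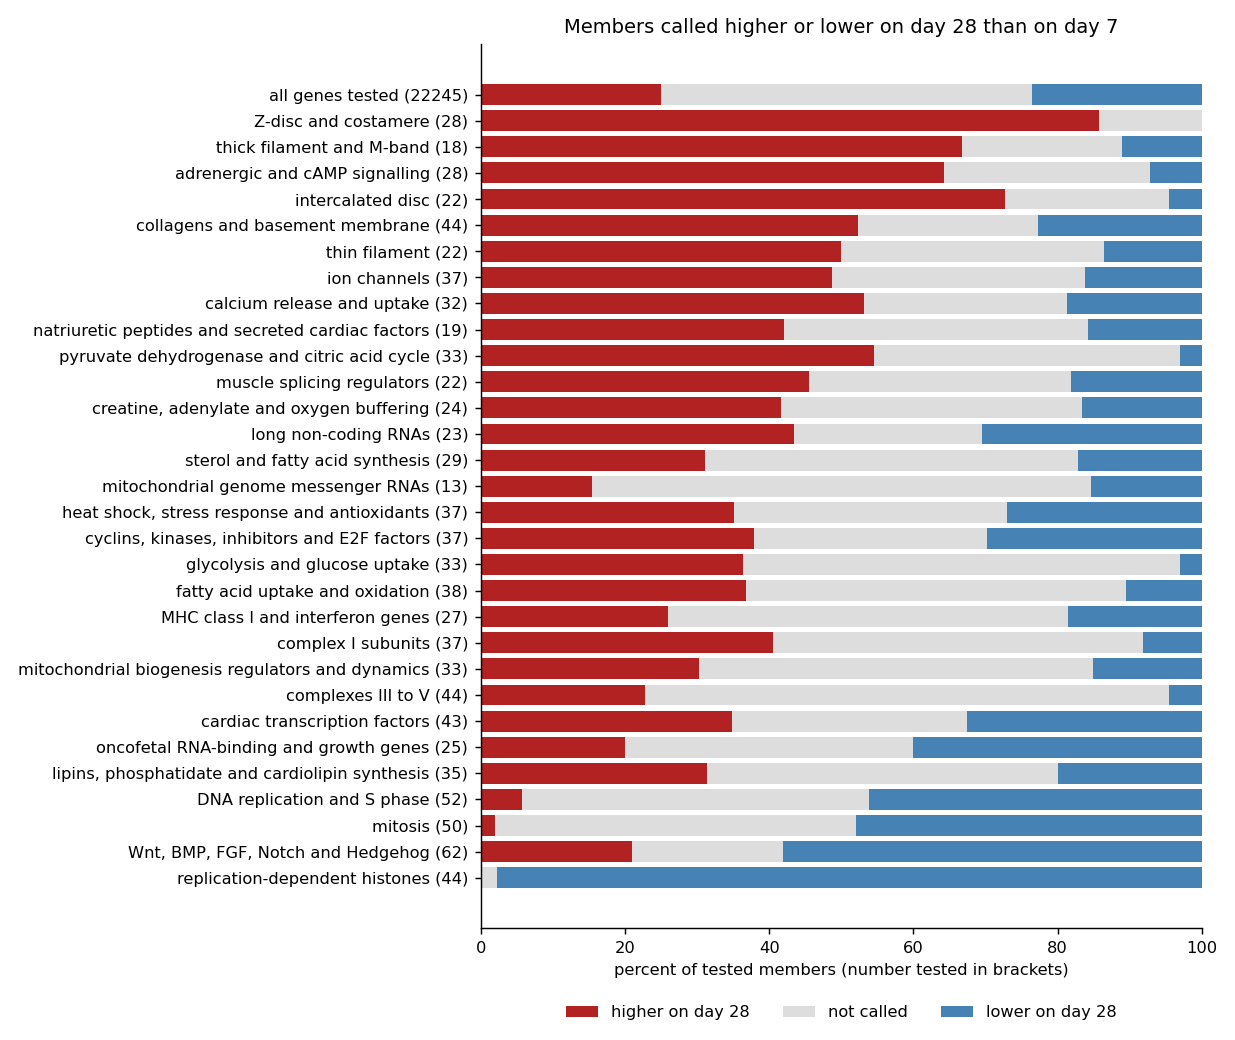
Percent of tested members called higher (red), not called (grey) and lower (blue) on day 28 in 30 gene lists, ordered by median log2 change, with all 22245 genes tested in the top bar. The Z-disc, thick filament, intercalated disc and cAMP lists are mostly red, the histone list is almost wholly blue, and the respiratory chain lists are mostly grey.

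The day on which the day 28 state appeared differed by list. Relative to day 7, the median of mean log2 levels in the Z-disc list was 1.31 on day 10, 1.46 on day 14 and 2.59 on day 28. For the thick filament list it was 0.90, 1.00 and 1.70 on these days. The medians of the histone list were -1.34 on day 10, -2.74 on day 14 and -3.23 on day 28, so most of that fall was present by day 14. Among single genes, TTN and NEBL were near their day 28 means on day 14, at 2119.5 and 4139.5 CPM, while PDLIM3, HOPX, NRAP and MYL2 gained nearly all of theirs after it. No test was run on these courses, and day 10 had 2 libraries.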

How the data were processed

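Total RNA of 23 H1-hESC libraries was rRNA-depleted and sequenced with a stranded kit, per the labels' protocols. Per the submitters' processing notes, Trim Galore 0.65 cut reads down to 50 bases, STAR 2.7.0 placed them on GRCh38, and HTSeq counted them over GENCODE 38 genes. The strand setting of the counting is not given in the sources used here. The authors deposited raw counts for 57521 genes, of which 44 copies on the Y pseudoautosomal region, all at 0, were left out. Names and exon lengths came from GENCODE 44 on GRCh38, and 1090 of 57477 genes had none there. edgeR 4.0.16 (R 4.3.3, robust quasi-likelihood, TMM) was fitted to all 23 libraries with day as a factor, after filterByExpr with a minimum of 10 counts, and tested on simulated counts. DESeq2 1.42.0 was an alternative. Isoform shares used exact permutation tests (scipy 1.17.1).

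The gene lists and members were chosen with earlier results of these data known. Genes named are the 15 largest rises and falls with a mean of at least 20 CPM, at least 4 counts on the lower day and no overlap, 5 lncRNAs each way at 5 CPM (both without clone, LINC, LOC, antisense or pseudogene names), the lipins, the 10 most abundant RNAs outside the mitochondrial genome, genes of 0 to 3 counts on 1 day, and list members, of which 1 of the falls is not reported here. Course medians used log2(CPM + 0.5). Floors cover counting error only. Promoter and microRNA sequences came from RefSeq (GRCh38.p14), where 13973 tested genes had a window of 250 bases before to 50 after the start. Same-numbered replicates of the days were not taken as pairs.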

Additional observations from a re-analysis of the deposited data

How the results depend on the processing

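Under all 16 other settings the counts of genes called stayed within 1.5 times those given. The number of genes tested was 22245 in the main fit, but 50827 with no filter and 17698 with only the 6 libraries. The share called was therefore lower with no filter, and higher with only the 6 libraries, than the 48.6% of the main fit. The higher and lower counts were 5550 and 5240 with RLE factors, 4622 and 6274 with upper-quartile factors, 3798 and 7300 with library totals alone, 5615 and 5346 with DESeq2, 5915 and 4633 with no filter, 5201 and 5199 with a CPM of at least 1 in 3 libraries, 6383 and 6403 with only the 6 libraries, and 5290 and 5458 without mitochondrially encoded genes. Leaving out 1 library gave 4108 to 4698 higher and 4549 to 5083 lower. Deviations of same-numbered libraries correlated at 0.0135, -0.0415 and -0.0326, and those of differently numbered ones at -0.0463 to 0.0848. Same-numbered libraries thus showed no more shared deviation than others. This cannot tell whether they came from the same cultures. With the replicate number as a block, 5548 were higher and 5177 lower. The block with only the 6 libraries, chosen after seeing the data, gave 6259 and 6310. Of 188 named genes called and checked, 183 kept their call in every setting and none changed sign. ACTC1, JPH2 and JUP lost theirs without single libraries, ACTC1 also with RLE factors (adjusted p 0.0554), ACTC1 and JPH2 with upper-quartile factors (0.168 and 0.093) and library totals (0.216 and 0.127), JUP with no filter (0.0868), AFP with the added block (0.0572), and MT-ND6 in 3 settings. The causes were not tested. In the 150 bases before the start alone, a CHR was in 47.6% of mitosis promoters and 5.15% of all, and a TATA box in 59.0% of histone promoters and 4.17% of all. Without division by length, the MYH7 share was 89.9% on day 28 and 5.76% on day 7. Among the 6 libraries compared, the lowest depth, 4506749 counts in day 7 replicate 1, limits the precision of genes with few counts.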

Other observations

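Genes of creatine, adenylate and oxygen buffering had 10 of 24 tested higher and 4 lower on day 28 (2 lower without day 28 replicate 1). CKM (muscle creatine kinase) made up 83.8, 85.2 and 82.2% on day 28, against 62.6, 73.9 and 68.5% on day 7 of its pair with CKB per kilobase, with no overlap between the days. Of 37 stress response and antioxidant genes, 13 were higher and 10 lower, and of 29 genes of sterol and fatty acid synthesis, 9 were higher and 5 lower. Of 27 MHC class I and interferon genes, 7 were higher and 5 lower (3 lower without day 28 replicate 3 or day 7 replicate 3). Over all genes 25.0% were higher and 23.6% lower, so the MHC and interferon counts were near the background. Among markers of other cells, 2 of 11 epicardial genes were higher and 5 lower, 3 of 5 neural genes higher and 2 lower, 1 of 7 skeletal muscle genes higher and 2 lower, and 1 of 7 immune genes higher and 3 lower. Of 10 progenitor markers, 1 was higher and 6 lower.

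One mitochondrial messenger RNA, MT-ND6, was high in a single library, at 915, 158 and 129 CPM on day 28, against 74.9, 79.1 and 77.8 CPM on day 7 (log2 change 2.37 ± 0.51, adjusted p = 4.86e-04). Without that library its log2 change was 0.85 and its adjusted p 0.055. ALB (albumin) also differed within day 28, at 5.17, 7.73 and 32.2 CPM on day 28, against 0.392, 0.602 and 0.415 CPM on day 7.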
